A study of Mus musculus with 86 samples.

Results

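The genes examined here are 10 genes of the mouse heart that were selected on measured values of these arrays, namely a large response to isoproterenol in C57BL/6 mice and not in 3 other mouse lines. They are Sema6c, Cryl1, Med18, Uroc1 and B3galt2, which were lower in treated than in untreated C57BL/6 hearts, and Hnrnpl, Otub1, Rasl10a, Zbtb12 and Gpc3, which were higher. They are 10 of the 18193 genes named on the array and are covered by 20 of its 45101 probe sets. They were chosen by the treated against untreated differences in C57BL/6 and the lack of a like difference elsewhere, so every treated against untreated value below is a description and carries no test. Tests are given for what the choice did not use directly. They concern the levels of untreated lines other than C57BL/6, and whether the genes moved together among untreated hearts of those lines. They also ask whether the probe sets of a gene moved together from array to array. The untreated arrays of all lines entered the choice, and pairs of genes among untreated C57BL/6 hearts are a description.

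The study recorded 86 Affymetrix arrays of whole mouse hearts, 1 array per sample. Mice of each line were assigned at random to isoproterenol, which stimulates beta-adrenergic receptors, infused for 14 days at a daily dose of 120 µg/g, or to no treatment, and the labels name no vehicle infusion for untreated mice. By the series design FVB and B2KO mice developed systolic dysfunction under the infusion, C57BL/6 mice diastolic dysfunction, and B6129SF2/J mice served as a separate group. After 1 duplicate was merged, the arrays numbered 12 treated and 10 untreated for FVB, 10 treated and 11 untreated for C57BL/6, 10 treated and 10 untreated for B2KO, and 12 treated and 10 untreated for B6129SF2/J. The labels call FVB, C57BL/6 and B6129SF2/J wild type, do not spell out B2KO, and give neither age nor sex. Values are log2 of the deposited intensity, on which each array's median is 0, so a gene at 0 is as bright as the middle probe set of its array. Levels of different probe sets cannot be set against each other, and in a whole heart fewer cells of a type and less RNA per cell cannot be told apart.

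The genes belong to different families and pathways. Sema6c encodes a membrane-bound semaphorin, a guidance cue read by plexin receptors. Gpc3 encodes glypican-3, a heparan sulphate proteoglycan anchored to the cell surface that binds growth factors and Hedgehog ligands, and Rasl10a encodes a small GTPase of the Ras family. Other members work in the nucleus. Hnrnpl binds CA-rich RNA and governs splicing, Med18 is a head subunit of Mediator, the complex that links transcription factors to RNA polymerase II, and Zbtb12 belongs to the BTB zinc finger family. Otub1 removes ubiquitin chains and also restrains ubiquitin-conjugating enzymes without cutting. The other members are enzymes: Cryl1 (lambda-crystallin) acts on gulonate in the glucuronate pathway, Uroc1 is urocanase of histidine breakdown, best known from liver, and B3galt2 adds galactose to sugar chains. Isoproterenol signals through cyclic AMP, whose target promoters often hold the cAMP response element.

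The promoters of 4 members are shown because these genes form the pairs whose untreated levels are compared below, Med18 with Uroc1 and Hnrnpl with Otub1. RefSeq windows of the 250 bases before the start (GRCm38.p6) were found for all 10 genes, 11 windows in all. They are written 5′ to 3′ along the strand of the gene, and capitals mark TGACG, the short form of the cAMP response element, on either strand. The window of Med18 lies at chr4:132463922-132464171 on the minus strand and that of Otub1 at chr19:7206285-7206534 on the minus strand. For Uroc1 the 200 bases outside the annotated gene are given, chr6:90333039-90333238 on the plus strand. For Hnrnpl, whose window lies within the annotated span of the gene, only 25 bases around the match are given, chr7:28810845-28810869 on the plus strand.
Med18: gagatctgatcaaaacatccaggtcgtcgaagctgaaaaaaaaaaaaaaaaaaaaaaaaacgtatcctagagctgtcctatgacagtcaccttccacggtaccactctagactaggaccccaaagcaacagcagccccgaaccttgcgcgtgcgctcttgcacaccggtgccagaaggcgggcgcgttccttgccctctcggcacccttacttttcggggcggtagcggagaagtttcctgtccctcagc
Uroc1: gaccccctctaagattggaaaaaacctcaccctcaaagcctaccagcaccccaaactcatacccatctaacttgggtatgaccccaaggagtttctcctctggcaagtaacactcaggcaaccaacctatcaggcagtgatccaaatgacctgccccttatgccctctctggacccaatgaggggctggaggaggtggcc
Otub1: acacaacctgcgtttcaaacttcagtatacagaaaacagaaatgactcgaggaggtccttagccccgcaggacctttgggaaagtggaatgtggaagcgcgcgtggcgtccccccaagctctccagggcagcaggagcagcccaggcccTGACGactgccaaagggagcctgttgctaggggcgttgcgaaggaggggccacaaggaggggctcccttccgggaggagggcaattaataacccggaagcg
Hnrnpl: gggcggcgagTGACGggcgtgtccc
TGACG began 101 bases before the start of Otub1 and 35 bases before that of Hnrnpl, and it was in neither of the other windows shown. Over all members it was in 2 of 11 windows (18.2%), against 17.8% of the 32851 RefSeq windows of the same length. The full element TGACGTCA, which contains TGACG, was in 0 of 11, against 1.55% of all windows. The share with TGACG was near that of all promoters, and a match is a description of letters only.

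All 10 genes stood above the array median in at least 1 group mean and so were among the 11962 genes fitted. In C57BL/6, 10 of 10 passed limma adjusted p under 0.05, against 19.5% of all genes, a count that the choice of the genes fixes. Of these, 8 passed there and in no other line, among 2066 genes of that kind, and by size they ranked 1 (Sema6c), 2 (Hnrnpl), 5 (Otub1), 7 (B3galt2), 8 (Cryl1), 12 (Gpc3), 16 (Med18) and 19 (Uroc1). The label therefore held for 8 of 10, as read from 1 probe set per gene. Rasl10a also passed in FVB and Zbtb12 in B6129SF2/J, each with the opposite sign.

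Of the genes lower in treated C57BL/6 hearts, Sema6c had values from −3.04 to 1.25 with a median of −2.03 in the treated arrays, against −0.27 to 4.28 with a median of 1.37 in the untreated arrays. The difference was −3.53 ± 0.55 (log2, treated minus untreated, ± SE, here and below), the largest of any gene in that line. Treated hearts lay below the array median in 8 of 10 cases and untreated hearts in 1 of 11, but the groups overlapped. B3galt2 ran from −0.98 to 0.50 with a median of 0.04 in treated arrays, against 1.92 to 3.99 with a median of 2.57 in untreated arrays, a difference of −2.84 ± 0.31. Every treated heart was below every untreated heart. Groups that did not overlap were seen for 3 of the 10 genes (B3galt2, Otub1 and Zbtb12), against 1.06% of all genes.

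Cryl1 ran from −0.20 to 5.07 with a median of 1.87 in treated C57BL/6 arrays, against 1.35 to 7.20 with a median of 4.96 in untreated arrays, a difference of −2.73 ± 0.55. The high treated values were replicate 3 at 5.07 and replicate 7 at 3.96, and the low untreated values were replicates 10 at 1.35 and 5 at 1.75, so the groups overlapped widely. Med18 had treated values from 2.72 to 3.75 with a median of 3.26, against untreated values from 3.22 to 7.38 with a median of 5.46, a difference of −2.31 ± 0.42. Treated hearts were tightly grouped (SD 0.40) and untreated ones were not (SD 1.65). Uroc1 had treated values from −2.28 to 2.80 with a median of 1.51, against untreated values from 1.39 to 4.75 with a median of 3.76, a difference of −2.30 ± 0.43. One treated heart, replicate 6, was far below the others.

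Of the genes higher in treated C57BL/6 hearts, Hnrnpl had values from 3.50 to 4.31 with a median of 3.96 in treated arrays, against −1.73 to 3.90 with a median of 0.12 in untreated arrays, a difference of 3.10 ± 0.58. The treated SD was 0.26 and the untreated SD 2.00, and untreated replicates 9 (3.68) and 10 (3.90) lay inside the treated range. Otub1 had treated values from 2.90 to 4.47 with a median of 3.57, against untreated values from −0.94 to 2.88 with a median of 0.97, a difference of 2.88 ± 0.48. The lowest treated heart stood just above the highest untreated one. Zbtb12 had treated values from 0.70 to 2.12 with a median of 1.16, against untreated values from −2.73 to 0.63 with a median of −1.06, a difference of 2.36 ± 0.31. Its groups were also separate, by less than 0.1 log2 unit.

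Gpc3 had treated C57BL/6 values from 0.36 to 3.82 with a median of 1.53, against untreated values from −2.04 to 0.63 with a median of −0.74, a difference of 2.43 ± 0.45. Untreated hearts lay below the array median in 9 of 11 cases and treated hearts in none. Rasl10a had treated values from −0.65 to 1.85 with a median of 0.84, against untreated values from −2.38 to 0.83 with a median of −0.73, a difference of 1.66 ± 0.36. Rasl10a had the smallest of the 10 differences and ranked 161 by size among all genes. In 11 other settings of scaling, filter, probe set choice and arrays all 10 genes kept their sign and passed wherever they were tested. Averaging all probe sets of a gene, however, reduced the differences to −0.56 for Cryl1, −1.14 for Uroc1, −1.56 for B3galt2, 1.28 for Hnrnpl and 1.82 for Otub1.

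**Figure D1:**
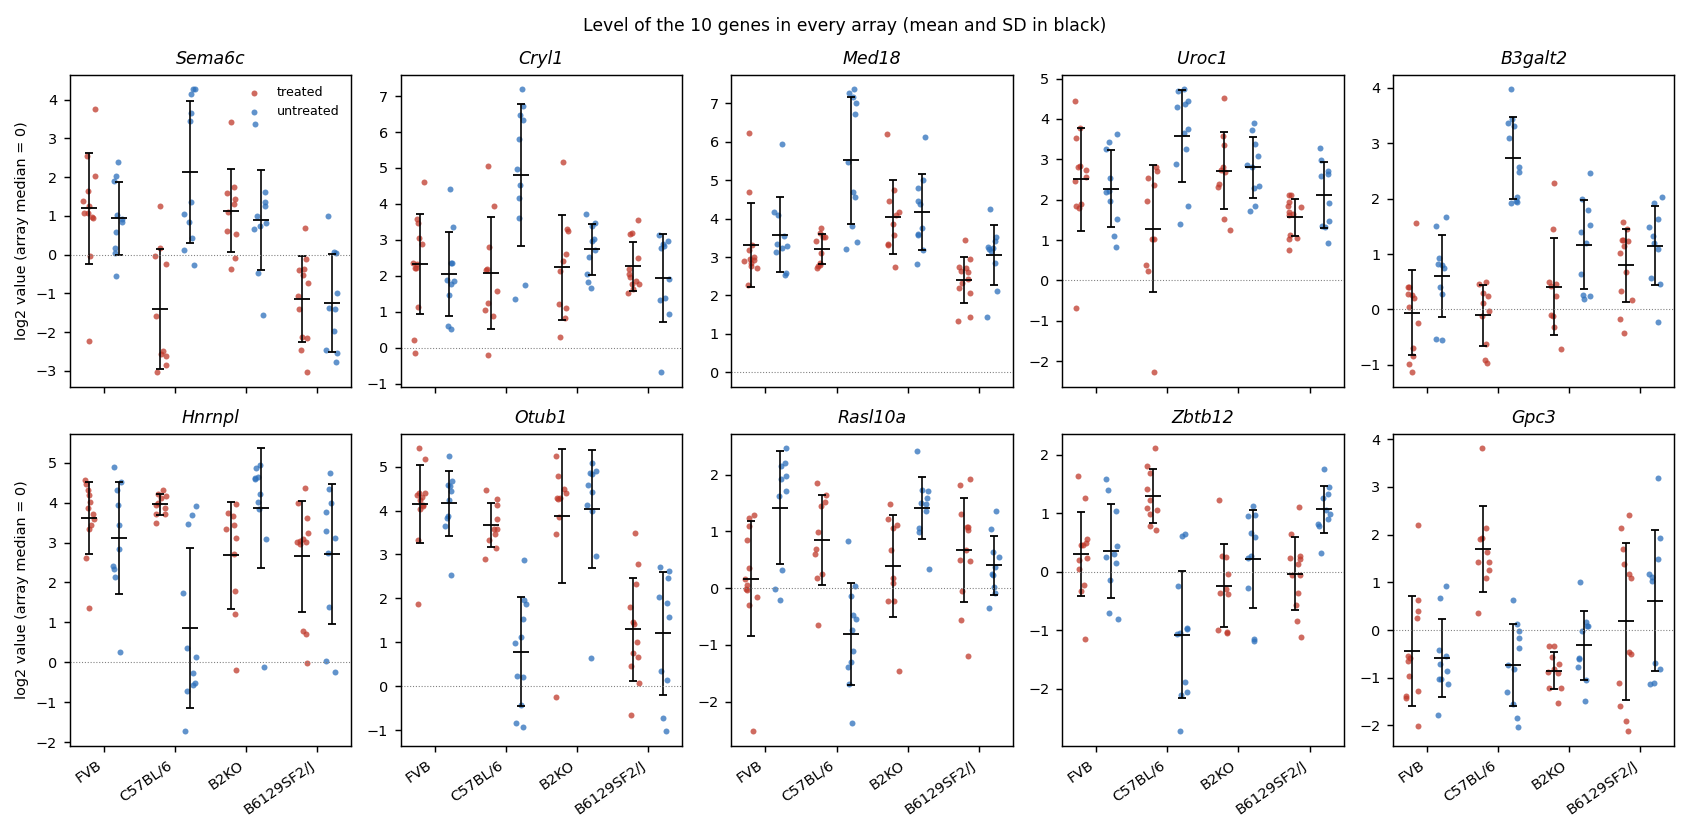
Log2 level (array median 0) of the probe set that stands for each gene in every array, in 4 lines, with treated arrays in red left of untreated arrays in blue and mean ± SD in black. In C57BL/6 the treated and untreated arrays of B3galt2, Otub1 and Zbtb12 do not overlap, and the untreated arrays of Hnrnpl, Sema6c and Med18 are widely spread (SD 2.00, 1.83 and 1.65).

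In the other lines the same genes showed differences of mixed sign. In FVB 1 of 10 passed (1.51% of all genes did), in B2KO 0 of 10 (1.8%, with 3 members at an unadjusted p under 0.05) and in B6129SF2/J 1 of 10 (4.54%). Rasl10a in FVB had values from −2.52 to 1.29 with a median of 0.11 in treated arrays, against −0.20 to 2.47 with a median of 1.82 in untreated arrays, a difference of −1.25 ± 0.35. This call was lost in 14 of 22 fits that left out 1 array, among them that without treated FVB replicate 2, an array in doubt by strain markers (−1.01), and with the label number as a block (−1.25). Zbtb12 in B6129SF2/J had values from −1.12 to 1.11 with a median of 0.04 in treated arrays, against 0.31 to 1.76 with a median of 1.02 in untreated arrays, a difference of −1.10 ± 0.31. Both genes were higher in treated C57BL/6 hearts. By the probe set that stands for each gene, no gene therefore moved past the threshold the same way in a further line. Another B3galt2 probe set, 1437433_at, was also lower in treated hearts elsewhere. It averaged −0.85 treated and −0.04 untreated in FVB, −0.46 and 0.36 in B6129SF2/J, and −0.34 and −0.05 in B2KO. The third, 1437644_at, had a lower treated mean in FVB and B6129SF2/J and a higher one in B2KO.

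Sema6c differed by 0.26 ± 0.54 in FVB, 0.25 ± 0.57 in B2KO and 0.11 ± 0.54 in B6129SF2/J. Otub1 differed by −0.01 ± 0.47, −0.16 ± 0.49 and 0.09 ± 0.47 in the same order of lines. These are differences well within their SE. Hnrnpl had −1.19 ± 0.59 in B2KO, the largest size of the 10 there, and B3galt2 had a negative difference in all 4 lines (−0.66 ± 0.31 in FVB, −0.76 ± 0.32 in B2KO and −0.36 ± 0.31 in B6129SF2/J). None of the 30 differences between the effects of these 3 lines passed, and the percentages of all genes that did were 0 (B2KO minus FVB), 0.0167 (B6129SF2/J minus FVB) and 0.092 (B2KO minus B6129SF2/J), with 1, 2 and 1 members at an unadjusted p under 0.05.

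The C57BL/6 difference minus that of another line, also part of the choice, passed for 9 members against FVB (1.7% of genes), 9 against B2KO (10.5%) and 7 against B6129SF2/J (5.66%). Sema6c had −3.79 ± 0.78 against FVB, −3.77 ± 0.79 against B2KO and −3.63 ± 0.78 against B6129SF2/J. Zbtb12 had 2.41 ± 0.44, 2.82 ± 0.45 and 3.46 ± 0.44 in the same order. The members that did not pass were Hnrnpl against FVB (2.58 ± 0.81), Cryl1 against B2KO (−2.23 ± 0.78), and Med18 (−1.66 ± 0.58), Uroc1 (−1.74 ± 0.61) and Rasl10a (1.39 ± 0.50) against B6129SF2/J. These comparisons share the C57BL/6 arrays and are not independent of one another.

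**Figure D2:**
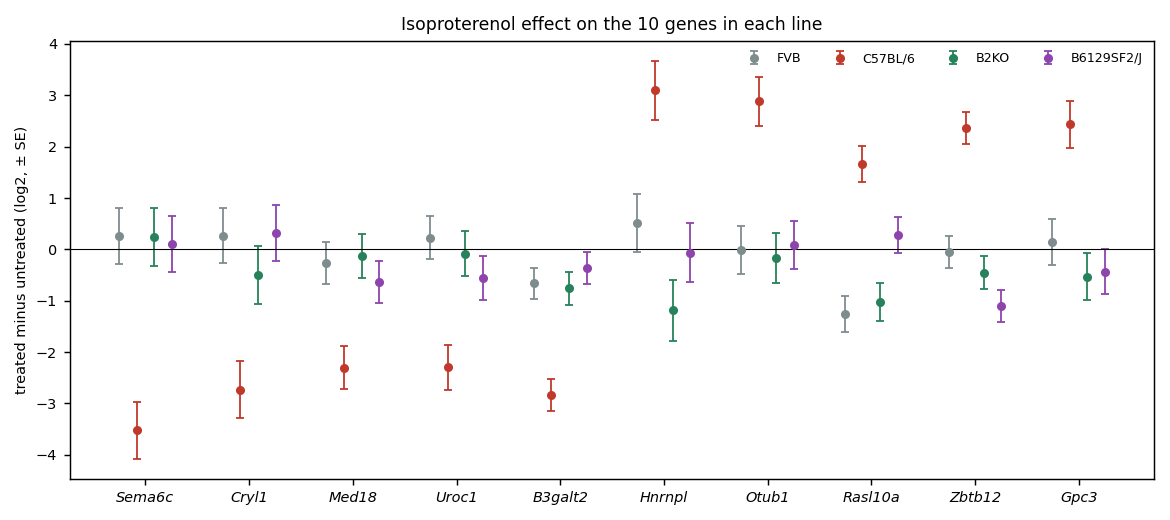
Treated minus untreated difference (log2, y axis) with SE for each of the 10 genes, in the 4 lines. C57BL/6 in red runs from −3.53 for Sema6c to 3.10 for Hnrnpl, and the other lines lie between −1.25 and 0.51.

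Which C57BL/6 group lay nearer to another line depended on the gene and on the line. Cryl1 averaged 2.08 in treated and 4.81 in untreated C57BL/6 hearts, against 2.33 and 2.06 in treated and untreated FVB, 2.24 and 2.74 in B2KO hearts, and 2.27 and 1.95 in B6129SF2/J, so the treated mean was near all 3 lines and the untreated mean above them. Gpc3 averaged 1.70 treated and −0.73 untreated in C57BL/6, against −0.45 and −0.59 in FVB, −0.85 and −0.32 in B2KO hearts, and 0.18 and 0.61 in B6129SF2/J, so its treated mean was above all 3. Otub1 averaged 3.67 treated and 0.78 untreated in C57BL/6, against 4.15 and 4.16 in FVB, 3.88 and 4.04 in B2KO hearts, and 1.30 and 1.20 in B6129SF2/J. For Otub1 the treated mean was thus near FVB and B2KO, and the untreated mean near B6129SF2/J. Sema6c averaged −1.40 treated and 2.12 untreated in C57BL/6, against 1.20 and 0.93 in FVB, 1.13 and 0.88 in B2KO hearts, and −1.14 and −1.25 in B6129SF2/J, so its treated mean was near B6129SF2/J and its untreated mean nearer to FVB and B2KO. The untreated C57BL/6 level differed from untreated FVB in 8 of 10 members (12.2% of genes), from B2KO in 7 (9.93%) and from B6129SF2/J in 9 (7.67%), counts that the same arrays fixed through the choice.

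The choice did not use differences between untreated lines other than C57BL/6, and by limma 2 genes differed here. The same arrays did enter the choice through the lack of a like response, so these comparisons are not wholly free of it. Otub1 was lower in untreated B6129SF2/J hearts, with values from −1.03 to 2.72 and a median of 1.73, against 2.53 to 5.25 and a median of 4.34 in untreated FVB. The difference of −2.96 ± 0.49 had a limma adjusted p of 5.46e-06, and the groups overlapped only slightly. Sema6c was lower as well, with values from −2.79 to 0.99 and a median of −1.39 in B6129SF2/J, against −0.55 to 2.39 and a median of 0.87 in FVB, a difference of −2.18 ± 0.57 (limma adjusted p 0.00713). With 2 of 10 called and 7.05% of all genes called, no other member passed, and the nearest was Rasl10a at −1.02 ± 0.37 (limma adjusted p 0.0746), which passed in 4 of 10 other settings.

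Untreated B2KO hearts differed from untreated B6129SF2/J hearts in the same 2 genes. The comparison uses the same B6129SF2/J arrays as that with FVB and is not independent of it. Otub1 in untreated B2KO ran from 0.63 to 5.09 with a median of 4.50, and its difference from untreated B6129SF2/J was 2.84 ± 0.49 (limma adjusted p 1.65e-05). Sema6c in untreated B2KO ran from −1.56 to 3.37 with a median of 0.91, a difference of 2.13 ± 0.57 from B6129SF2/J (limma adjusted p 0.0124). These were 2 of 10 members, where 4.66% of genes were called, and Rasl10a at 1.02 ± 0.37 (limma adjusted p 0.0989) passed in 3 of 10 other settings. Between untreated B2KO and untreated FVB no member passed, also none at an unadjusted p under 0.05, and 0.0167% of genes did. The differences there were −0.12 ± 0.49 for Otub1 and −0.06 ± 0.57 for Sema6c.

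The other probe sets of these genes did not pass for the difference between lines. The other Otub1 probe set had a B6129SF2/J minus FVB difference of −0.47 ± 0.29 (limma adjusted p 0.521 over all probe sets, of which 3.58% were called). For Sema6c the others had −0.28 ± 0.36 (0.844) and 0.22 ± 0.33 (0.875). For B2KO minus B6129SF2/J, where 2.87% of probe sets were called, they had 0.36 ± 0.29 for Otub1 (0.669), and 0.61 ± 0.36 (0.501) and −0.68 ± 0.33 (0.348) for Sema6c. For B2KO minus FVB, where 0.0114% of probe sets were called, the Sema6c ones had 0.33 ± 0.36 (0.860) and −0.46 ± 0.33 (0.841). Line and the DNA sequence under a probe cannot be told apart in such comparisons.

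A further 10 probe sets cover 6 of the genes, while Med18, Rasl10a, Zbtb12 and Gpc3 have 1 probe set each. Of those 10, 4 had the same sign in C57BL/6 as the probe set that stands for the gene (40%), against 67.7% of 2159 such probe sets of the other called genes. One passed in the same direction and 1 in the opposite direction, where 14.7% of all probe sets passed. A second call in the same direction was made for 1 of 6 genes (16.7%), against 12 of the 25 other genes with a C57BL/6 difference of at least 2 (48%). These counts describe the choice and are not tests.

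In the fit over all probe sets those of B3galt2 had the same sign: 1423084_at had −2.84 ± 0.31, 1437433_at −1.32 ± 0.24 and 1437644_at −0.51 ± 0.22. Probe set 1437433_at ran from −1.21 to −0.05 with a median of −0.88 in treated C57BL/6 arrays, against −0.79 to 1.92 with a median of 0.43 in untreated arrays. For Otub1 the second probe set, 1448817_at, had 0.76 ± 0.28, smaller than the 2.88 ± 0.47 of 1417705_at and of the same sign. In these 2 genes every probe set pointed one way in C57BL/6.

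For the other 4 genes they did not. Sema6c 1451898_a_at had −3.53 ± 0.55, but 1423454_a_at had 1.08 ± 0.35 and 1437652_at 0.67 ± 0.32. Sema6c 1423454_a_at ran from −0.84 to 1.54 with a median of 1.04 in treated arrays, against −2.09 to 0.51 with a median of −0.02 in untreated arrays, so the probe sets of this gene ran opposite ways. Hnrnpl 1424101_at had 3.10 ± 0.58 and 1445594_at had −0.54 ± 0.26, and 1445594_at was below the array median in all arrays of both groups. Cryl1 1459589_at had −2.73 ± 0.54, where 1416795_at had 0.21 ± 0.22, 1430681_at 0.30 ± 0.25 and 1447112_s_at −0.01 ± 0.24. Uroc1 1425003_at had −2.30 ± 0.43 and 1451565_s_at, below the median in all C57BL/6 arrays, had 0.02 ± 0.23.

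**Figure D3:**
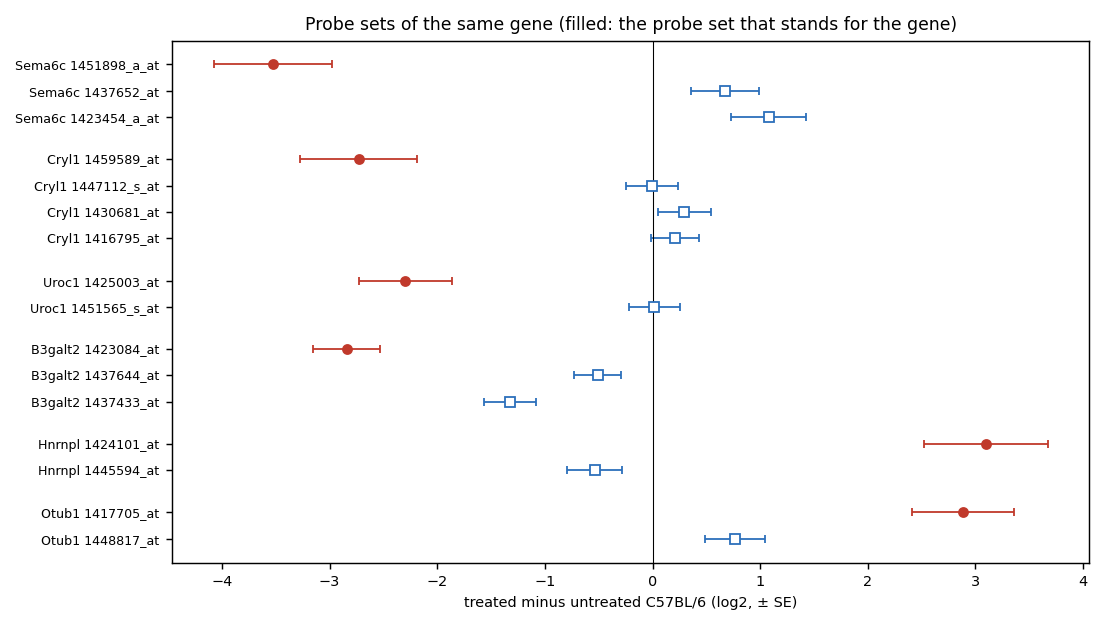
Treated minus untreated C57BL/6 difference (log2, x axis) with SE for the 16 probe sets of the 6 genes with more than 1, filled red where the probe set stands for the gene. B3galt2 and Otub1 have probe sets on 1 side of 0, and Sema6c, Hnrnpl, Cryl1 and Uroc1 do not.

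Whether probe sets of a gene followed each other from array to array was tested on values taken relative to their group mean over 85 arrays. That step removes the group differences that chose the genes. It does not remove the spread within untreated C57BL/6 hearts, whose arrays entered the choice. Of 15 pairs, 5 passed a permutation test within groups after Benjamini-Hochberg adjustment, all positive. The Otub1 probe sets had r = 0.55 (adjusted permutation p 7.5e-05, from the smallest p these permutations can give, 1e-05, with rho 0.51 and the same p). Without the 2 arrays farthest from the median r was 0.37, and without the arrays in doubt 0.41. B3galt2 1423084_at had r = 0.47 with 1437433_at (adjusted permutation p 0.00015, rho 0.44, p 0.0004) and 0.37 with 1437644_at (0.00337, rho 0.37, p 0.00435), and these last had 0.33 with each other (0.0141, rho 0.32, p 0.0174). That last pair was 0.29 without the arrays in doubt and missed the threshold (adjusted p 0.0512). The genes whose probe sets agreed on the C57BL/6 difference, B3galt2 and Otub1, were also those in which the probe set that stands for the gene followed the others.

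The remaining pair that passed joined Cryl1 1416795_at and 1447112_s_at, with r = 0.59 and rho 0.54 (adjusted permutation p 7.5e-05 for each), and neither of these stands for the gene. The Cryl1 probe set with the large difference, 1459589_at, had r of −0.07, −0.09 and −0.08 with the 3 others (adjusted permutation p 0.653 to 0.665). Sema6c 1451898_a_at had 0.04 with 1423454_a_at (0.801) and −0.26 with 1437652_at (0.0543). The Hnrnpl pair had −0.24 (0.0671) and the Uroc1 pair −0.12 (0.571). Over the 10 pairs that involve the probe set that stands for a gene the median r was −0.07, against 0.14 over 14388 such pairs of all other genes, and 3 of 10 exceeded 0.3, against 33.4% of the others. In 4 of the 6 genes no other probe set was shown to follow the one that carries the large response, and several of those others are dim.

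Among the 11 untreated C57BL/6 hearts several genes were unusually spread. The SD was at least 1.5 for 4 of 10 members (Sema6c 1.83, Cryl1 1.97, Med18 1.65 and Hnrnpl 2.00), against 0.326% of all genes, whose median was 0.529. For 6 members the untreated C57BL/6 SD exceeded that of each other untreated line, against 26.2% of genes. Since these arrays entered the choice, the spread is a description.

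The spread of Sema6c and Med18 came from the same hearts. Sema6c was between 3.44 and 4.28 in replicates 1, 2, 3, 4 and 6 and between −0.27 and 1.37 in replicates 5 and 7 to 11, with no heart between. Med18 was between 6.73 and 7.38 in replicates 1, 2, 3, 4 and 6 and between 3.22 and 5.46 in the other 6. The same 5 hearts also held the 5 highest values of Cryl1 (5.81 to 7.20) and of Uroc1 (4.31 to 4.75).

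Hnrnpl divided the untreated C57BL/6 hearts in another way. It was 3.47, 3.68 and 3.90 in replicates 5, 9 and 10, the last 2 inside the treated range, and between −1.73 and 1.73 in the other 8. The same 3 hearts held the 3 highest untreated values of Otub1 (2.88, 1.88 and 1.97) and of Zbtb12 (−0.25, 0.62 and 0.63). Separate sets were also seen for Rasl10a in untreated FVB and for Otub1 and Gpc3 in untreated B6129SF2/J. A set was taken as separate where the largest gap was at least 0.3 of the range with at least 3 arrays on each side, a rule chosen after seeing the data.

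**Figure D4:**
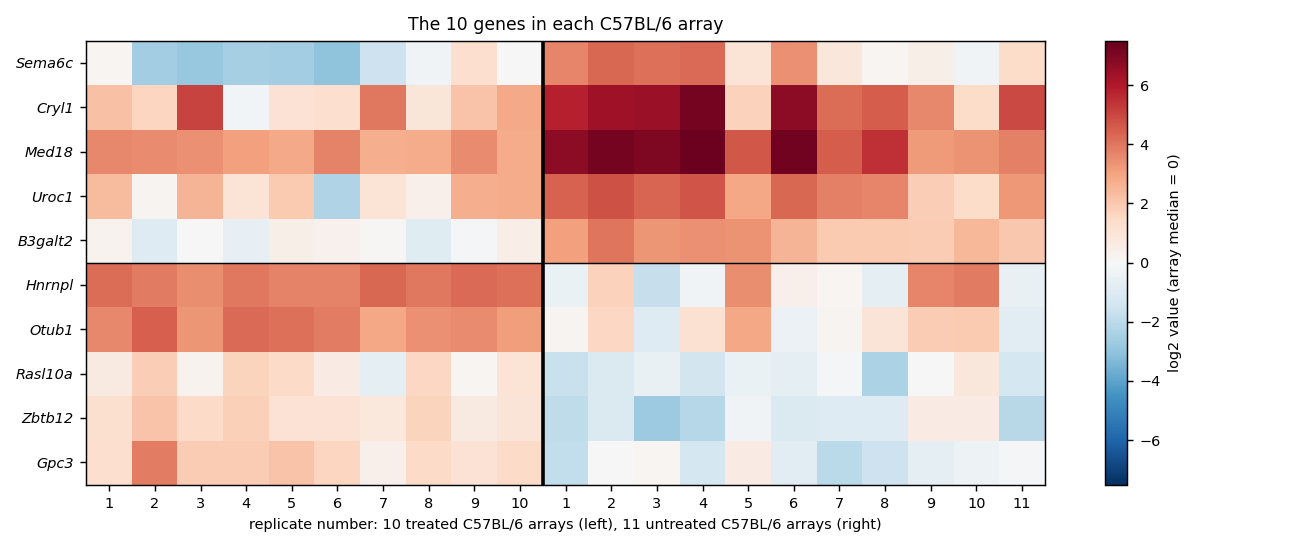
Log2 level (colour, array median 0) of the 10 genes in rows in each C57BL/6 array in columns, the 10 treated arrays left of the 11 untreated ones, numbered by replicate. In untreated replicates 1, 2, 3, 4 and 6 Sema6c, Cryl1, Med18 and Uroc1 are highest, and in untreated replicates 5, 9 and 10 Hnrnpl is 3.47 to 3.90.

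Endothelial and fibroblast marker sums and the upper quartile of the array moved with the first of these patterns. The summed level of 4 endothelial markers (array median 1) was 70.8, 93.9, 103.8, 96.6 and 55.0 in untreated C57BL/6 replicates 1, 2, 3, 4 and 6, and 131 to 177 in replicates 5 and 7 to 11. The sum of 5 fibroblast markers was 260 to 464 in those 5 hearts and 517 to 791 in the other 6, and the upper quartile of the array (log2) was 1.80 to 2.59 and 2.61 to 2.84. All 4 endothelial and all 5 fibroblast markers stood above the array median in each of the 8 groups, with ranges in C57BL/6 of 129 to 257 treated and 55.0 to 177 untreated for endothelial and 497 to 1523 treated and 260 to 791 untreated for fibroblast markers. The 6 cardiomyocyte markers summed to 10058 to 13643 in treated C57BL/6 arrays, against 7217 to 9051 in those 5 untreated hearts and 8028 to 14600 in the other 6. The 4 liver markers measured summed to 2.06 to 5.91 in treated arrays, against 2.29 to 5.17 in those 5 untreated hearts and 1.33 to 3.50 in the other 6. For both lists the ranges of the 5 and the 6 untreated hearts overlapped, with the lowest cardiomyocyte and the highest liver sum among the 5. The macrophage, smooth muscle, erythroid, adipose, skeletal muscle and lung sums overlapped between these hearts as well, and so did the Gapdh 3′ minus 5′ signal. The part of these lists and of the upper quartile in the levels of Sema6c, Cryl1, Med18 and Uroc1 was not tested. All 4 lung markers were below the array median in both C57BL/6 groups. The liver markers Alb and Hal, the enzyme before Uroc1 in histidine breakdown, were below it in both groups, and Apoa1 and Ttr in the untreated group. Summed levels in treated and then untreated C57BL/6 arrays were 45.9 to 159 and 50.5 to 158 for 4 macrophage markers, 175 to 492 and 112 to 311 for 3 smooth muscle markers, 58.6 to 189 and 17.1 to 131 for 2 erythroid markers, 3.85 to 89.1 and 4.58 to 103 for 3 adipose markers, and 86.8 to 479 and 94.4 to 918 for 4 skeletal muscle markers, of which 3 were below the array median.

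Pairs of members were tested among the untreated arrays of each line, 45 pairs in 4 lines with adjustment over 180. The untreated C57BL/6 arrays entered the choice, so the calls in that line are a description. The C57BL/6 pairs share the adjustment, and their small p-values can lower the adjusted p of the other lines. Adjusted values there are thus not wholly free of the choice. By Pearson r 1 pair passed in FVB, 9 in C57BL/6, 0 in B2KO (4 at an unadjusted p under 0.05, 1 by Spearman) and 1 in B6129SF2/J. For scale, r as large as the smallest called was reached by 2.26% of all pairs of genes in FVB, 8.42% in C57BL/6 and 0.254% in B6129SF2/J, and r of 0.8 by 10.5% in B2KO. In C57BL/6, 7 of the 9 pairs, and in B6129SF2/J the only pair, involve a gene whose values fall into separate sets, so their r over all arrays is not given. Within sets of at least 6 arrays 0 of 54 relations passed the exact permutation test (lowest adjusted p 0.834). In a set of 6 arrays a single relation could not pass after this adjustment, however close it was. The count therefore does not show that relations within sets were absent. Relations within C57BL/6 sets are a description too, and that of Sema6c with Med18 is listed from either gene.

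Med18 and Uroc1 were the pair that passed in FVB, where neither gene has separate sets, with r = 0.87 (permutation p 1e-05, the smallest possible, adjusted 0.0018) and rho 0.95 (p 0.00013, adjusted 0.0234) over 10 arrays. Without the 2 arrays farthest from the median of Med18, r was 0.95. In untreated FVB both genes were highest in replicate 10, an array in doubt by its Gapdh signal, and without it r was 0.97 (exact permutation p 0.000276) and rho 0.93 (p 0.00075). In B2KO the same pair had r = 0.72 (permutation p 0.0194, adjusted 0.146) and rho 0.68 (p 0.0337, adjusted 0.217), and in B6129SF2/J r = 0.47 (permutation p 0.183, adjusted 0.557) and rho 0.59 (p 0.0794, adjusted 0.367). Without the array in doubt r was 0.80 in B2KO (exact permutation p 0.00808) with rho 0.82 (p 0.0108), and 0.49 in B6129SF2/J (exact permutation p 0.188) with rho 0.65 (p 0.0666). The pair also passed in C57BL/6, where Med18 has separate sets and r is not given, so it passed in 2 of 4 lines. In C57BL/6 the call is a description, since those arrays entered the choice.

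In C57BL/6 Cryl1 and Uroc1 had r = 0.87 (permutation p 0.00094, adjusted 0.026) and rho 0.85 (p 0.00195, adjusted 0.0501) over 11 arrays, and r = 0.85 without the 2 farthest arrays. These arrays entered the choice, so the C57BL/6 p-values in this paragraph are descriptions and not tests. Elsewhere this pair had r of 0.64 in FVB, −0.02 in B2KO and 0.67 in B6129SF2/J, with adjusted permutation p of 0.233, 0.988 and 0.201, and rho of 0.65, −0.04 and 0.64 (adjusted p 0.285, 1 and 0.299). Uroc1 and Zbtb12 had r = −0.81 in C57BL/6 (permutation p 0.00288, adjusted 0.0471) and rho −0.72 (p 0.0158, adjusted 0.142). Without untreated replicate 11, in doubt by its Gapdh signal, it was −0.88. The relation rests on the 2 arrays farthest from the median, since without them r was −0.46 (exact permutation p 0.215).

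Hnrnpl and Otub1 had r = 0.94 in B2KO (permutation p 0.00421, adjusted 0.0541) and rho 0.90 (p 0.00089, adjusted 0.0357), and r = 0.91 without the 2 farthest arrays. Both adjusted values are near the threshold and share their adjustment with the C57BL/6 pairs, so the Spearman call is not free of the choice. Both genes were lowest in untreated B2KO replicate 8, at −0.12 and 0.63, an array in doubt by its RNA (Gapdh 3′ minus 5′ signal 7.31), and without it r was 0.70 (exact permutation p 0.0419) and rho 0.87 (p 0.00451). In FVB the same pair had r = −0.18 (permutation p 0.612, adjusted 0.903) and rho 0.21 (p 0.56, adjusted 0.95). The pair passed by Pearson r in C57BL/6, as a description, and in B6129SF2/J, where it was the only one called. Hnrnpl has separate sets in the first of these lines and Otub1 in the other, so r is not given there.

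Over the pairs of genes without separate sets, the share with r of at least 0.6 in size was 28.6% of 21 pairs in C57BL/6, 13.9% of 36 in FVB, 8.89% of 45 in B2KO and 14.3% of 28 in B6129SF2/J. The shares over all pairs of genes were 29.3%, 25.9%, 30.3% and 13.5% in the same order of lines. Over all 45 pairs, separate sets included as they are for genes at large, the share was 44.4% in C57BL/6, 13.3% in FVB, 8.89% in B2KO and 13.3% in B6129SF2/J. In C57BL/6 the share of members was above that of all pairs when every pair was counted and close to it without the genes in separate sets, as counts without a test.

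**Figure D5:**
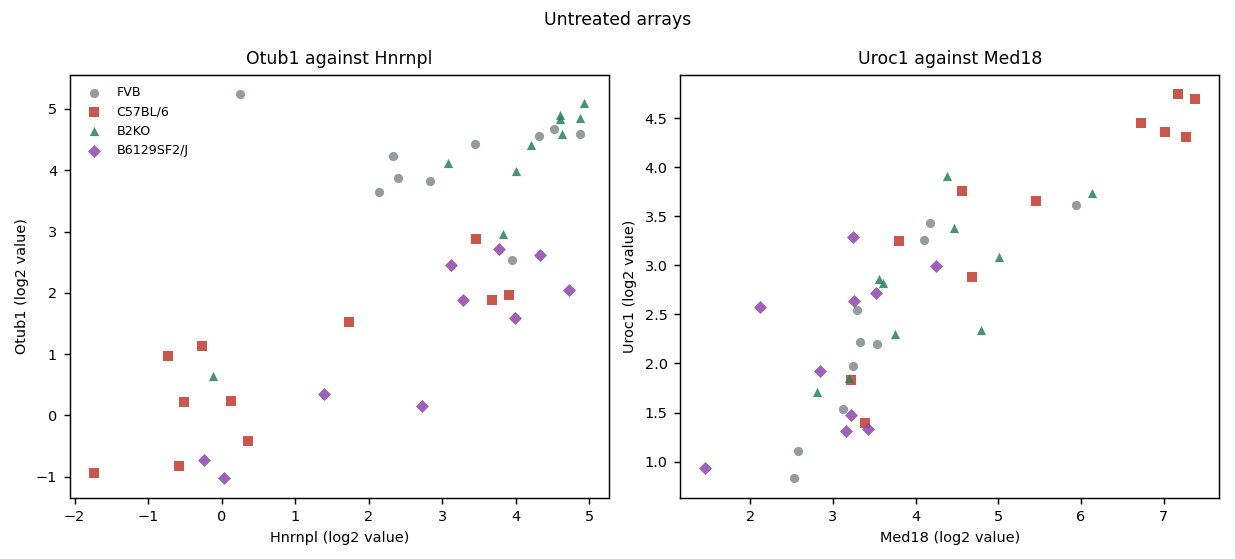
Log2 levels in the untreated arrays of 4 lines, Otub1 (y axis) against Hnrnpl (x axis) on the left and Uroc1 against Med18 on the right, each point an array. The low B2KO point on the left is replicate 8, and the 5 C57BL/6 points at the upper right of the right panel are replicates 1, 2, 3, 4 and 6.

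The genes most like each member over all 85 arrays, each value taken relative to its group mean, were mostly not members. Cryl1 was most like Pik3cd (r = 0.87), E2f5 (0.87) and Sema3f (0.82). Med18 was most like Pik3cd (0.74), Aif1l (0.74) and Csnk1d (0.73), and Uroc1 most like Aif1l (0.74), Pik3cd (0.73) and Tead3 (0.65). Sema6c was most like Fzd10 (0.67), Aif1l (0.65) and Uroc1 (0.61), so Aif1l or Pik3cd stood among the nearest 3 of all 4 of these genes. The arrays share scaling and depth of signal, and no p is given.

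Hnrnpl was most like Spr (0.74), Cenpb (0.72) and Otub1 (0.70), and Otub1 most like Tmem242 (0.81), Vps72 (0.79) and Yif1b (0.78). B3galt2 was most like Prex2 (0.54), Zfp800 (0.53) and Zxdb (0.51), Rasl10a like Homer1 (0.55), Nfil3 (0.54) and Nr1h3 (0.54), and Zbtb12 like Chpf (0.50), Crim1 (0.49) and Cemip2 (0.48). Gpc3 had the weakest likeness, with Anxa8 (0.40), Cela3b (0.35) and Sik1 (0.34). Without the arrays in doubt Otub1 and Vps72 had 0.59 and Hnrnpl and Otub1 0.61. Only Uroc1 and Otub1 appeared as members among the nearest 3 of another member.

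Genes of the same families, complexes and pathways mostly did not pass in C57BL/6. Of 131 listed genes 119 were tested, and 18 rose and 3 fell by limma adjusted p under 0.05, against 12.5% and 6.98% of all genes. Centring each array on its tested genes changed this to 19 and 16, leaving out all arrays in doubt to 36 and 9, and the centring moved every C57BL/6 difference by −0.16. The median difference was 0.16 over the listed genes, against 0.09 over all genes.

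Of the semaphorins and plexins around Sema6c, 3 of 12 rose and 1 fell, while Sema6c itself was lower by the probe set that stands for it. Sema5a averaged 0.87 in treated and −0.60 in untreated C57BL/6 hearts, a difference of 1.47 ± 0.50 (limma adjusted p 0.0277). Sema6a differed by 0.95 ± 0.28 (0.0109) and Plxna4 by 0.75 ± 0.24 (0.0168). The 1 that fell was Sema4d (−0.68 ± 0.24, 0.0364), named after its value was seen, and it also fell in FVB (−0.87) and B6129SF2/J (−1.13). Semaphorins near Sema6c therefore included 1 of the same subclass, Sema6a, with the opposite sign to that probe set. The other Sema6c probe sets, 1423454_a_at (1.08 ± 0.35) and 1437652_at (0.67 ± 0.32), had the same sign as Sema6a.

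Of 28 Mediator genes around Med18, 2 rose and none fell, and their median difference was −0.01. The 2 were Med25 (1.04 ± 0.23, limma adjusted p 0.000558) and Med29 (0.91 ± 0.31, 0.0276), both opposite in sign to Med18. Of 5 genes of histidine breakdown around Uroc1 and 8 of the glucuronate pathway and crystallins around Cryl1, none passed in either direction. Of 9 glycosyltransferases around B3galt2, 3 rose: B3gat3 (0.85 ± 0.31, 0.0364), B4galt5 (0.83 ± 0.24, 0.00949) and B3galt4 (0.80 ± 0.29, 0.0431). For the members that were lower in treated C57BL/6 hearts, the lists held 8 calls upward and 1 downward. Over all genes 12.5% were called higher and 6.98% lower, so calls leaned upward at large as well. The balance of calls over all lists changed with centring, as given above.

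Of 12 genes around Gpc3, 4 rose and none fell. Hspg2, the basement membrane proteoglycan perlecan, averaged 5.89 in treated and 4.48 in untreated hearts (1.41 ± 0.38, limma adjusted p 0.00468), Sdc4, syndecan-4, differed by 1.40 ± 0.40 (0.00799), and Gpc6, another glypican, by 0.65 ± 0.23 (0.0345), and Gpc6 also rose in FVB (0.99) and B6129SF2/J (0.77). Of 8 small GTPases around Rasl10a, 3 rose: Rasd1 (1.37 ± 0.34, 0.00222), Rasl10b (0.93 ± 0.28, 0.0132) and Gem (0.88 ± 0.24, 0.00582), of which Gem also rose in FVB (0.87) and B6129SF2/J (1.39). Gpc3 and Rasl10a were higher too. Most calls over all genes were also upward (12.5% higher, 6.98% lower), and whether the shared sign is particular to these families was not tested.

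Of 16 splicing genes around Hnrnpl, Hnrnpu rose (1.05 ± 0.20, limma adjusted p 6.74e-05) and Ptbp2, a neuronal splicing repressor, fell (−0.64 ± 0.20, 0.0155). Of 12 deubiquitinases and partners around Otub1, Tnfaip3, the ubiquitin-editing enzyme A20, rose (1.26 ± 0.35, 0.00575) and Ube2d2a, a ubiquitin-conjugating enzyme, fell (−0.93 ± 0.24, 0.00416). Of 9 BTB zinc finger genes around Zbtb12, Zbtb7b rose (0.69 ± 0.21, 0.0142). Hnrnpl, Otub1 and Zbtb12 were all higher, and their lists held 3 calls upward and 2 downward among 37 genes, against 12.5% and 6.98% of all genes.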

How the data were processed

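The deposited values are intensities on a linear scale, with a median of 1 in each array. The authors made them with GCRMA (named in the submitters' processing notes, version not given in the sources used here). The log2 of the deposited value was used throughout. Probe sets were named by the platform annotation, with symbols updated through RefSeq (GRCm38.p6): 34945 had 1 symbol, 932 several and 9160 none, and 64 were controls. Each gene was read from whichever of its probe sets had the highest mean. Of 18193 genes, 11962 with a group mean above log2 0 were fitted. Treated B2KO replicates 4 and 9 were identical but for rounding (r = 0.99999976, next pair 0.982). They differed by less than the sampling noise of any other pair and were counted as 1 sample, which left 85 arrays.

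In all 8 arrays were in doubt and kept in the values given: treated B2KO replicate 10 failed, treated FVB replicate 2 and treated B2KO replicate 7 were in doubt by strain markers, and 5 had a Gapdh 3′ minus 5′ signal over 2. They were left out in alternatives. Differences came from limma 3.58.1 in R 4.3.3, 1 fit over the 8 groups with Benjamini-Hochberg adjustment over all genes (or all 34945 probe sets with 1 symbol), two-sided. Correlations used 100000 permutations, or exact enumeration below 10 arrays, in Python 3.11.15 with scipy 1.17.1. The scripts were tested on simulated data. The labels give separate samples and no word on shared animals, so p-values measure the spread between samples. No sequencing depth applies, and the number of arrays limits the precision.

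The 10 genes, the lists of related genes and the markers were chosen with earlier results of these data known. Genes were named by rule: all members, the 3 most alike to each, and up to 3 of the largest calls of each list. Replicate numbers did not pair the samples: treated and untreated arrays of 1 number had a correlation of deviations over 0.1 in 2 of 10 pairs in FVB, 0 of 10 in C57BL/6, 3 of 9 in B2KO and 1 of 10 in B6129SF2/J.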

Additional observations from a re-analysis of the deposited data

Results flagged for a closer look

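In 6 of 50 groups of up to 10 arrays, an array lay far from the others in 1 of the 10 genes. Chance flags about 1 in 20 groups.

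Untreated B2KO replicate 8 was far below its group in 2 genes, with Hnrnpl at −0.12 (the next at 3.08) and Otub1 at 0.63 (the next at 2.96). This array is in doubt by its Gapdh signal. Treated B2KO replicate 10, the array that failed, was far below its group in Otub1 at −0.25 (the next at 3.47). In untreated FVB, Med18 was high in replicate 10 at 5.94 (the next at 4.17), an array also in doubt by Gapdh.

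Treated C57BL/6 replicate 6 had the lowest Uroc1 value, −2.28 (the next at 0.22), and treated C57BL/6 replicate 2 the highest Gpc3 value, 3.82 (the next at 2.13). Neither of these arrays was in doubt by the measures used. Leaving out either one kept all 10 C57BL/6 calls.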

How the results depend on the processing

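The 10 calls in C57BL/6 held in every setting that tested the gene, 7 of 7 under the stricter filter, and in all leave-one-out fits (10 to 10). In FVB the count fell to 0 with no filter on dim genes, without the failed array and those in doubt by strain, with a fit of the groups alone and with the replicate block. It was also 0 with the stricter filter, under which Rasl10a was not tested, and ran from 0 to 1 over leave-one-out fits. The consensus correlation within a label number was −0.053, and the block changed no other count of members. In B6129SF2/J it was 0 with the stricter filter, under which Zbtb12 was not tested, and 1 to 1 on leaving out arrays. In B2KO it was 1 without treated replicate 6 (Rasl10a, −1.15) and otherwise 0 (0 to 1).

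Between untreated lines the counts were 1 for B6129SF2/J minus FVB and 1 for B2KO minus B6129SF2/J when probe sets were averaged, which left Sema6c untested, and up to 3 in other settings of either comparison, the third being Rasl10a. They were 2 to 3, 2 to 2 and, for B2KO minus FVB, 0 to 0 over leave-one-out fits. Calls among listed genes numbered 35 after centring (19 higher, 16 lower), 33 without the failed array (25 and 8), 34 without it and those in doubt by strain (26 and 8), and 45 without all arrays in doubt (36 and 9), against 21 (18 and 3), with 16 to 25 over leave-one-out fits. The cause was not tested. Centring moved the C57BL/6 differences by −0.16, the B2KO differences by 0.32 and B6129SF2/J minus FVB by −0.12.

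Pairs called in FVB numbered 2 without the arrays in doubt and 0 with averaged probe sets or without the 2 farthest arrays. In C57BL/6 they numbered 4 by Spearman, 2 with averaged probe sets and 0 without the 2 farthest arrays, in B2KO 1 by Spearman and 2 without the arrays in doubt, and in B6129SF2/J 0 by Spearman, with averaged probe sets and without the 2 farthest arrays. Fewer arrays enter where 2 are left out. No result reversed.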
